A study of Mus musculus with 20 samples.

Results

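The expression of 10 genes of nucleotide excision repair, Xpa, Xpc, Ddb1, Ddb2 and Ercc1 to Ercc6, was examined among the 22090 genes of a mouse skin RNA-seq count table. They were chosen by name, as the damage recognition, unwinding and incision factors of the pathway, and all 10 were in the table. The 20 libraries came from back skin of SKH-1 mice, an immunocompetent hairless strain in which sunlight-type radiation causes skin tumors, all female and 7 months old when assigned to their groups, before the weeks of irradiation, and comprised 8 normal skin (NS), 8 actinic keratosis (AK, a precancerous lesion) and 4 cutaneous squamous cell carcinoma (cSCC) tissues. By the sample labels, 4 mice were left unirradiated and gave 1 NS each, and 4 mice exposed repeatedly to ultraviolet light from a solar simulator gave 1 normal tissue and 3 lesions each. The labels tell neither which NS were irradiated nor which tissues share a mouse, so the 8 AK stand for 4 mice. NS were treated as 1 group and all tissues as independent, which can make p-values too small.

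Nucleotide excision repair removes the bulky pyrimidine dimers that ultraviolet light leaves in DNA. In the global branch the lesion is found by XPC and by the DDB1-DDB2 complex, and in the transcription-coupled branch by CSB, the product of Ercc6, at a stalled RNA polymerase. Both branches then use the TFIIH helicases XPB (Ercc3) and XPD (Ercc2), the scaffold XPA, and the nucleases XPG (Ercc5) and ERCC1-XPF (Ercc1 and Ercc4), after which the gap is filled and sealed. Inherited loss of several of these factors causes xeroderma pigmentosum, with skin cancer at sun-exposed sites, or Cockayne syndrome.

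Levels are CPM, each count divided by its library's total after edgeR's TMM scaling of the 20 libraries, and each pair of groups was tested by quasi-likelihood in edgeR. A gene was called when its Benjamini-Hochberg adjusted p-value over all genes tested was under 0.05 and its fold change above 1.5 or below 0.67. Of the 10 genes, 9 passed the filter on low counts in each comparison, and Ercc2 did not. Between cSCC and NS, Ddb1 and Ercc1 were higher and Ercc6 was lower, 2 and 1 of the 9 genes, against 11.7% of 12097 genes called higher and 7.65% called lower. The same 3 genes were called in the same directions between cSCC and AK, against backgrounds of 16% higher and 8.34% lower among 12032 genes. Both comparisons use the same 4 cSCC libraries. Between AK and NS, 0 of the 9 genes were called in either direction by edgeR, DESeq2 or limma voom, and 0 had an unadjusted edgeR p-value under 0.05, against backgrounds of 2.26% higher and 2.38% lower among 11677 genes. The log2 fold changes in AK against NS ran from -0.55 for Ercc1 (SE 0.32, adjusted p = 0.295) to 0.12 for Ercc4 (SE 0.27, adjusted p = 0.814). The median log2 fold change of the 9 genes was -0.17 in AK against NS, 0.06 in cSCC against NS and 0.08 in cSCC against AK, beside -0.04, 0.14 and 0.17 for all genes tested.

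**Figure D1:**
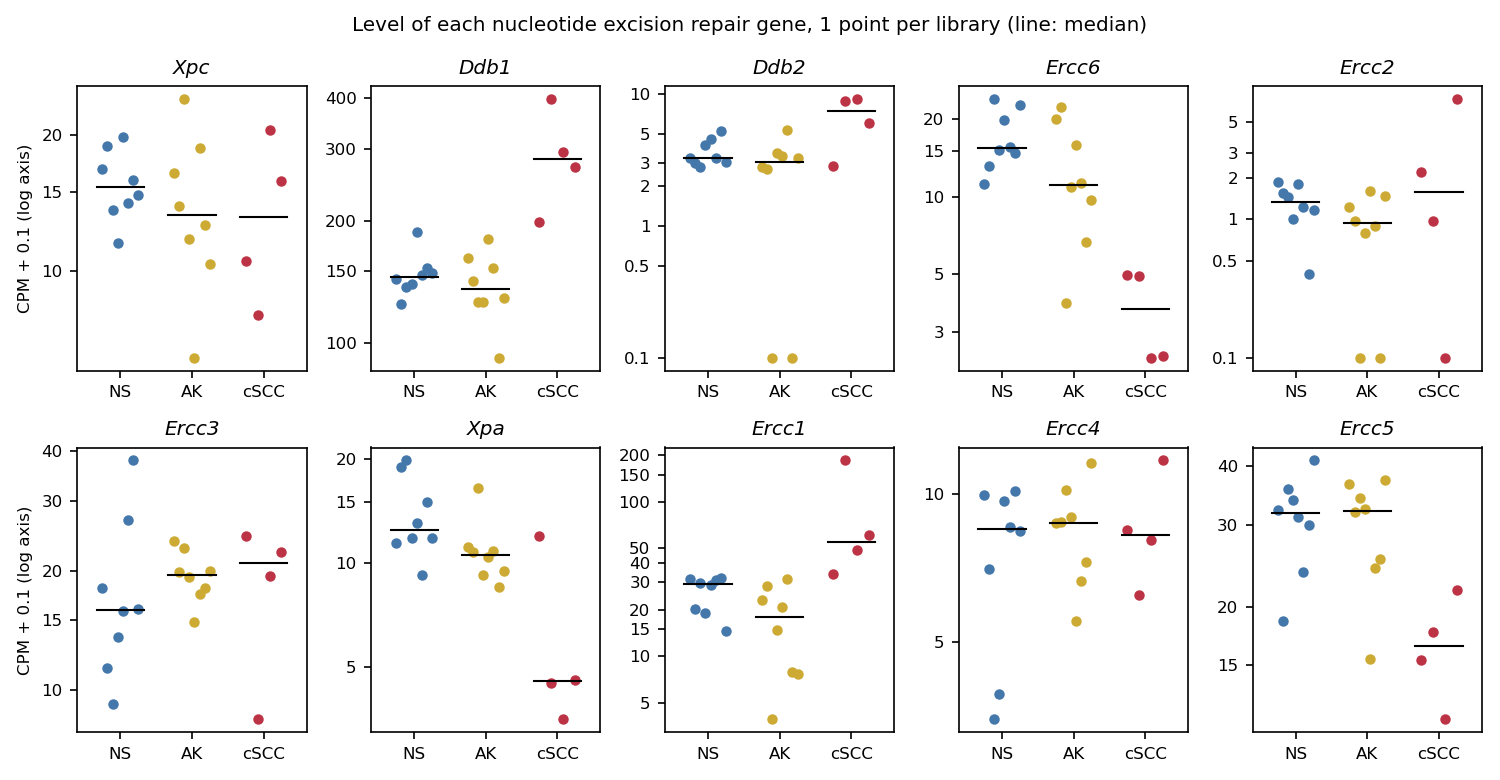
CPM plus 0.1 of the 10 genes (vertical log axes, a separate range in each panel) in the 8 NS, 8 AK and 4 cSCC libraries, 1 point per library, with a line at the group's median. The cSCC points of Ddb1 and Ercc1 lie above all NS and AK points, those of Ercc6 lie below all NS points, and the points at 0.1 for Ddb2 and Ercc2 are libraries with 0 counts.

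Several libraries stood apart. Total counts ranged from 775750 in cSCC 20 to 14055206 in AK 10, and AK 12 held 867219. Haemoglobin genes took 46.8% of the counts of cSCC 18 and 14.3% of AK 14, against 0.0917% to 5.45% in NS. The summed CPM of 10 heart muscle genes was 64655 in cSCC 21, led by Actc1, against at most 48.7 in NS and 83.2 in AK, and that of 9 lung epithelium genes was 36151 in cSCC 20, led by Sftpc, against at most 41.7 in NS and 61.8 in AK. In those libraries 9 of the 10 heart genes, all but Myl7, and 9 of the 9 lung genes had a count. The 14 keratinocyte genes, all with a count in each NS and AK library, summed to 25739, 21834, 7633 and 6077 CPM in cSCC 18, 19, 20 and 21, against 14537 to 29992 in NS and 16844 to 29341 in AK, and Flg2 was at 0 in cSCC 21. The 8 endothelial genes summed to 120 to 678 CPM in cSCC against 34.4 to 115 in NS and 38.1 to 100.1 in AK, and 7 of 8 were called higher in cSCC than in NS. The part of these cells in the values below was not tested, and in bulk tissue fewer cells of a type and less RNA per cell cannot be told apart. Without cSCC 20 and 21, Ddb1 and Ercc1 were still called in both comparisons, Ercc6 was called against NS, and 0 of the 9 genes were called lower than in AK.

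Scaling mattered for the background. With library size alone in place of TMM factors, the median log2 fold change of all genes in cSCC against NS moved from 0.14 to -0.17, and the calls from 1414 higher and 926 lower to 625 and 1332. In cSCC against AK that median moved from 0.17 to -0.09, and the calls from 1931 higher and 1004 lower to 1021 and 1356. In AK against NS the calls moved from 264 higher and 278 lower to 176 and 481.

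The promoters of the 3 called genes are shown because their transcripts moved in opposite directions. Each window holds 250 bases before to 50 bases after the start of transcription in RefSeq on GRCm38.p6, written 5′ to 3′ along the gene. Capitals mark matches, on either strand, to the GC box GGGCGG, the CCAAT box, the ETS core CCGGAA, the hypoxia element core ACGTG, the AP-1 site TGANTCA and the p53 half-site. The windows are chr19:10605347-10605646 for Ddb1, chr7:19344821-19345120 for Ercc1 and chr14:32513271-32513570 for Ercc6, all on the plus strand.
Ddb1: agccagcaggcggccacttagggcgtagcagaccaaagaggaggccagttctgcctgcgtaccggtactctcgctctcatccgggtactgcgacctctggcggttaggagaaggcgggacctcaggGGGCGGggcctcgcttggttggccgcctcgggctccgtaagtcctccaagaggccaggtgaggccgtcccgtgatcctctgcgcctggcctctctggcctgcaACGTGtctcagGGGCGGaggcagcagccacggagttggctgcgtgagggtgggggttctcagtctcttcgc
Ercc1: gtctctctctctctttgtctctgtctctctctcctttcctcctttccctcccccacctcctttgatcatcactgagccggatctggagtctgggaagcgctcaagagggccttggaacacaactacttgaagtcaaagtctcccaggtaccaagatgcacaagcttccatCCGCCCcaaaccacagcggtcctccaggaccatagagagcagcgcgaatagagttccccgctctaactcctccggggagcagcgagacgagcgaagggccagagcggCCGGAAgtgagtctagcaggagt
Ercc6: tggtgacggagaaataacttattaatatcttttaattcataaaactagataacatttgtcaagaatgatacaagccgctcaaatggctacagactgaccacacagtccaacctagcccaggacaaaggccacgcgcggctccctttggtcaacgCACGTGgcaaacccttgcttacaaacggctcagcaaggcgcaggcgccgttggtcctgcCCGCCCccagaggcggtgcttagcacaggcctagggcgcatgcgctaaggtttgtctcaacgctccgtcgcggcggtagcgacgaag
The Ddb1 window held 2 GC boxes and 1 hypoxia element core. The Ercc1 window held 1 GC box and 1 ETS core. The Ercc6 window held 1 GC box and 2 overlapping hypoxia element cores on opposite strands, which share the letters CACGTG. Of all 32851 windows of this length, 35.7% held a GC box, 14.9% an ETS core, 19.6% a hypoxia element core, 37.4% a CCAAT box, 7.81% an AP-1 site and 8.36% a p53 half-site. These matches describe the letters and are not evidence of binding. Windows of 7 of the 10 genes were searched, of which 0 held an AP-1 site or a p53 half-site. Ddb2, Xpc and Ercc3 were not searched. Outside the 3 genes shown, a CCAAT box was in the windows of Xpa, Ercc2, Ercc4 and Ercc5.

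Among the damage sensors of the global branch, Ddb1 rose in cSCC. Ddb1 encodes the large subunit of the damage-binding complex and also the adaptor of CUL4 ubiquitin ligases, and lies at chr19:10605327-10629819 on the plus strand (GENCODE M21, GRCm38). Its level ran from 125 through a median of 145 to 187 CPM in NS, and from 91.7 through 135 to 180 CPM in AK. In cSCC 18, 19, 20 and 21 it was 199, 399, 295 and 271 CPM. All 4 cSCC libraries lay above all 16 others, whereas NS and AK overlapped widely. Ddb1 was thus 2.06-fold higher in cSCC than in NS (log2 fold change 1.04, SE 0.22, edgeR adjusted p = 0.00724) and 2.29-fold higher than in AK (1.20, SE 0.23, adjusted p = 0.00376). The call against NS was lost with library size alone (0.83, adjusted p = 0.0833), which keeps the haemoglobin counts of cSCC 18 in its total, and was made with library size once the haemoglobin genes were left out (0.96, adjusted p = 0.0184). Ddb1 shares 5.12% of its exonic bases with Tkfc on the opposite strand, and Tkfc, in the table under its older symbol Dak, was at 4.76 ± 4.13 CPM (SD, n = 4) in cSCC.

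Ddb2, the subunit that contacts the dimer, was a low gene at every stage. It was at 2.71 to 5.18 CPM in NS, with a median of 3.18. In AK it was at 0 counts in AK 12 and AK 16 and reached 5.27 CPM, with a median of 2.95, and 3 counts in those libraries would be 3.78 and 1.80 CPM. In cSCC 18, 19, 20 and 21 it was 2.78, 8.79, 9.10 and 5.95 CPM. The last 3 lay above all NS and AK libraries and cSCC 18 lay among them. The difference was not called against NS (log2 fold change 0.95, SE 0.43, adjusted p = 0.137) or AK (1.38, SE 0.66, adjusted p = 0.138). Of its exonic bases 23.8% are shared with Acp2 on the opposite strand, whose own log2 fold change was 0.67 against NS (SE 0.36, adjusted p = 0.212), and the strand used in counting is not stated.

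Xpc, the sensor of helix distortion that starts the global branch, showed no called difference. Its lowest, median and highest levels were 11.5, 15.3 and 19.7 CPM in NS and 6.33, 13.2 and 24.0 CPM in AK. The 4 cSCC libraries were at 10.4, 7.91, 20.5 and 15.7 CPM, inside the AK range. The log2 fold change was -0.14 (SE 0.32, adjusted p = 0.801) against NS and 0.08 (SE 0.39, adjusted p = 0.905) against AK, and these signs held in 23 of 24 and in 15 of 25 alternatives.

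Ercc6, a chromatin remodeler of the SNF2 family that starts the transcription-coupled branch, fell in cSCC. It lies at chr14:32513521-32580990 on the plus strand (GENCODE M21). Its level ran from 11.1 through a median of 15.3 to 23.7 CPM in NS, and from 3.78 through 10.97 to 22.1 CPM in AK. In cSCC it was, from library 18 to 21, 4.86, 4.83, 2.28 and 2.32 CPM, which rest on 7, 11, 2 and 14 counts. Every cSCC library lay below every NS library, while AK 12, with 3 counts, and AK 16 were the lowest of AK, and AK 12 lay among the cSCC libraries. Ercc6 was 4.54-fold lower in cSCC than in NS (log2 fold change -2.18, SE 0.40, adjusted p = 0.00333) and 3.27-fold lower than in AK (-1.71, SE 0.51, adjusted p = 0.0250). Neither call was made by limma voom with quality weights (adjusted p = 0.0736 and 0.261), and the call against AK was lost without cSCC 21 (adjusted p = 0.0626) and without cSCC 20 and 21 (-1.33, adjusted p = 0.169). Without AK 12 and AK 16 it was -1.96 (adjusted p = 0.0166).

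Ercc6 had the longest exons of the 10 genes, 12851 bp in union, and the shares of genes called in cSCC varied with exon length. Tested genes were split by exon length into 4 classes of like size. In the class with the longest exons, which holds Ercc6, 9.50% of genes were called lower and 7.04% higher in cSCC than in NS, with a median log2 fold change of -0.05. In the shortest class 7.69% were lower and 15.8% higher, with a median of 0.26. Ercc1 is in the next to shortest class, where 14.7% of genes were called higher, and Ddb1 in the next to longest, where 9.52% were. The part of transcript length in the difference of Ercc6 was not tested.

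**Figure D2:**
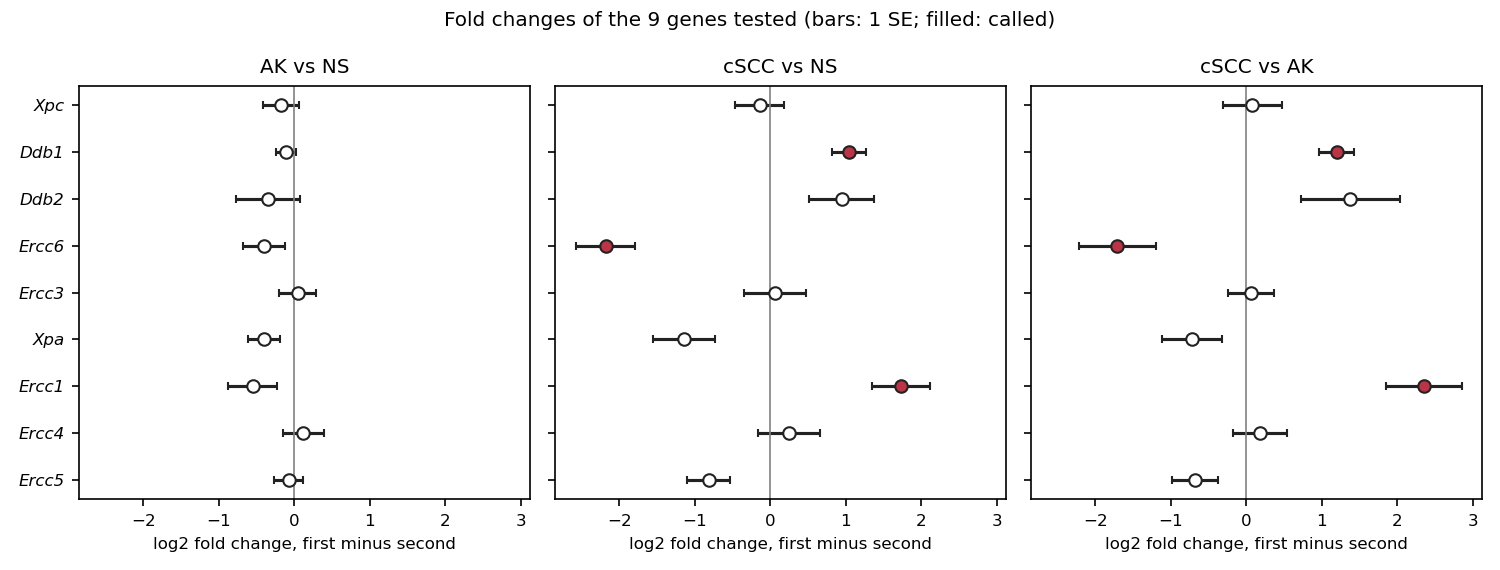
Log2 fold change (horizontal axis) of the 9 genes tested in AK against NS, cSCC against NS and cSCC against AK, with bars of 1 SE and filled points for called genes. Ddb1 and Ercc1 lie to the right of 0 and Ercc6 to the left in both comparisons with cSCC, and 0 points are filled in AK against NS.

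The TFIIH helicases gave no call. Ercc3 (XPB), which opens promoters as well as damaged DNA, was at 9.16, 15.9 and 37.8 CPM in NS as lowest, median and highest, and at 14.8, 19.4 and 23.7 CPM in AK. In cSCC it was at 24.3, 8.35, 19.3 and 22.2 CPM, with cSCC 19 below all others. Its log2 fold change was 0.05 in AK against NS (SE 0.25), 0.06 in cSCC against NS (SE 0.41) and 0.06 in cSCC against AK (SE 0.30), with adjusted p from 0.903 to 0.936. These signs held in 21 of 28, 15 of 24 and 14 of 25 alternatives.

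Ercc2 (XPD), the helicase that checks the damaged strand, was close to the limit of detection. It was at 0.304 to 1.76 CPM in NS and at 0 to 1.51 CPM in AK, where AK 12 and AK 16 had 0 counts. In cSCC it was at 2.08, 0.879, 0 and 7.28 CPM. Both cSCC 18, on 3 counts, and cSCC 21, on 44 counts, lay above all NS and AK libraries, and no test was made of Ercc2. Its exons share 24.6% of their bases with the antisense gene Gm26852 and 17.8% with Klc3, both on the opposite strand. Klc3 itself was at 0, 7.91, 0 and 7.44 CPM in cSCC 18, 19, 20 and 21.

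Xpa, the scaffold that holds the incision complex on the damage, was low in 3 of the 4 cSCC libraries. It was at 9.09, 12.3 and 19.7 CPM in NS as lowest, median and highest, and at 8.39, 10.4 and 16.4 CPM in AK. In cSCC 18, 19, 20 and 21 it was at 11.8, 4.39, 3.41 and 4.47 CPM. The last 3 lay below all NS and AK libraries, and cSCC 18, the library rich in haemoglobin, lay inside both groups. Against NS the log2 fold change was -1.15 (SE 0.41, adjusted p = 0.0629) and against AK -0.72 (SE 0.40, adjusted p = 0.198), neither called. Without cSCC 18 both passed, at -1.66 (adjusted p = 0.0107) and -1.30 (adjusted p = 0.0241). Xpa shares 4.07% of its exonic bases with Ncbp1 on the opposite strand. Ncbp1 was at 63.4 ± 20.1 CPM in cSCC (SD, n = 4) and 74.2 ± 13.6 in NS (n = 8), a log2 fold change of -0.18 (SE 0.25, adjusted p = 0.654).

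Of the nucleases, Ercc1 rose in cSCC. Ercc1 encodes the DNA-binding partner of XPF and lies at chr7:19344778-19356524 on the plus strand (GENCODE M21). Its level ran from 14.5 through a median of 29.1 to 32.0 CPM in NS, and from 3.78 through 17.8 to 31.5 CPM in AK, with AK 12 lowest on 3 counts. Its level in cSCC 18, 19, 20 and 21 was 34.0, 185, 48.9 and 61.2 CPM. All 4 lay above all NS and AK libraries, cSCC 18 by a small margin and cSCC 19 far above the rest. Ercc1 was 3.32-fold higher in cSCC than in NS (log2 fold change 1.73, SE 0.38, adjusted p = 0.00814) and 5.10-fold higher than in AK (2.35, SE 0.50, adjusted p = 0.00581). cSCC 19 set much of the size. Without it the log2 fold changes were 0.97 (adjusted p = 0.0491) and 1.60 (adjusted p = 0.0315), and both calls were kept in each of the 24 alternatives run. Ercc1 shares 3.41% of its exonic bases with Cd3eap on the opposite strand, whose log2 fold change against NS was 0.71 (SE 0.40, adjusted p = 0.228).

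Ercc4, which encodes the catalytic partner XPF, gave no call. It was at 3.39, 8.38 and 10.05 CPM in NS as lowest, median and highest, and at 5.43, 8.64 and 11.4 CPM in AK. In cSCC it was at 8.34, 6.15, 7.96 and 11.6 CPM, so that the 3 groups overlapped. The log2 fold change was 0.25 against NS (SE 0.40, adjusted p = 0.705) and 0.18 against AK (SE 0.36, adjusted p = 0.739), and library size alone turned both signs.

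Ercc5, the nuclease XPG that cuts on the other side of the lesion, was in the lower part of the range in cSCC. It was at 18.5, 31.6 and 41.1 CPM in NS as lowest, median and highest, and at 15.4, 32.1 and 37.3 CPM in AK. In cSCC it was at 15.3, 17.6, 11.4 and 21.7 CPM. Of these, 3 lay below all NS libraries and 2 below all AK libraries. The log2 fold change of -0.81 against NS (SE 0.28, adjusted p = 0.0574) was not called, nor was that of -0.68 against AK (SE 0.30, adjusted p = 0.1103). The first stayed uncalled in 15 of its 24 alternatives and was called in the others, DESeq2 and library size alone among them.

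Of ratios within a library, 3 were compared by two-sided exact permutation tests of the mean log2 of (CPM + 1) over (CPM + 1), adjusted over 9 tests. The ratio of Ercc1 to Ercc4, the 2 subunits of 1 nuclease, was 1.67 ± 0.59 in NS (SD, n = 8), 0.72 ± 1.19 in AK (n = 8) and 2.85 ± 1.26 in cSCC (n = 4). In cSCC 18, 19, 20 and 21 it was 1.91, 4.70, 2.48 and 2.31. It was higher in cSCC than in AK by 2.12 (exact p = 0.0101, adjusted p = 0.0455). The difference from NS was 1.18 (exact p = 0.0263, adjusted p = 0.0788). cSCC 18 lay inside the AK range and the other 3 above it, while against NS the groups overlapped. When 1 AK library was left out the call against AK was kept only without AK 12 or AK 15, and without cSCC 19 the difference was 1.51 (adjusted p = 0.145).

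The ratio of Xpc to Ercc6, the starters of the 2 branches, was -0.09 ± 0.48 in NS (SD, n = 8), 0.25 ± 1.09 in AK (n = 8) and 1.65 ± 1.02 in cSCC (n = 4). The values of cSCC 18, 19, 20 and 21 were 0.96, 0.61, 2.71 and 2.33, each above the highest NS value of 0.55. It was higher in cSCC than in NS by 1.74 (exact p = 0.00202, the smallest p that 495 splits allow, adjusted p = 0.0182). Against AK the difference was 1.40 (exact p = 0.0586, adjusted p = 0.116), and AK 12 reached 2.38. Without cSCC 20 and 21 the difference from NS was 0.87 (adjusted p = 0.12). Without any 1 cSCC library the adjusted p was 0.0545, the smallest that 165 splits allow a lone result, so these values cannot tell whether the call holds. The ratio of Ddb2 to Ddb1 was -5.03 ± 0.21 in NS (SD, n = 8), -5.51 ± 0.84 in AK (n = 8) and -5.31 ± 0.35 in cSCC (n = 4), with exact p from 0.113 to 0.679. With 0.1 in place of 1 CPM added, its difference went from -0.48 to -1.24 in AK against NS and from 0.20 to 1.06 in cSCC against AK, none of them called, and Ddb2 was at 0 counts in AK 12 and AK 16.

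**Figure D3:**
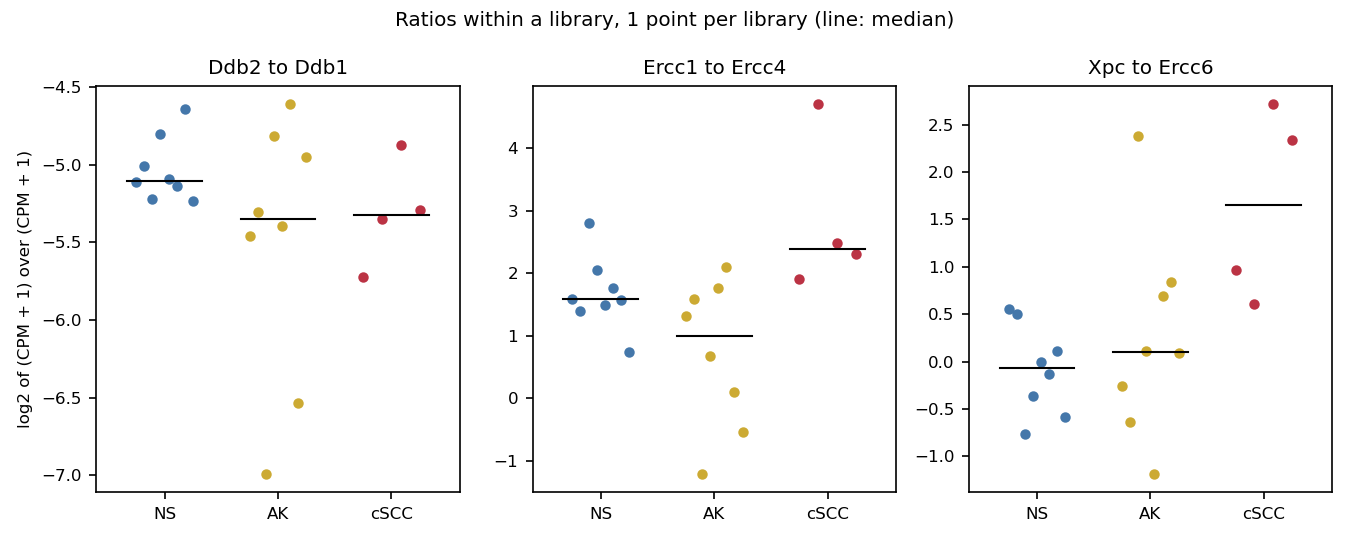
Log2 ratio of (CPM + 1) over (CPM + 1) within each library for Ddb2 to Ddb1, Ercc1 to Ercc4 and Xpc to Ercc6 (vertical axes, a separate range in each panel), 1 point per library with a line at the group's median. For Xpc to Ercc6 the 4 cSCC points, 0.61 to 2.71, lie above all NS points, and for Ercc1 to Ercc4 cSCC 19 stands at 4.70.

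Levels of different genes were compared as CPM per kilobase of exon (union length in GENCODE M21). In NS the order by median was Ddb1 at 22.6, Ercc1 at 9.36, Xpa at 6.51, Ercc3 at 5.60 and Ercc5 at 5.39. Then came Xpc at 2.78, Ercc4 at 1.24, Ercc6 at 1.19, Ddb2 at 1.16 and Ercc2 at 0.297 CPM per kilobase. Only Ddb1 and Ercc1, Xpc and Ercc4, and Ddb2 and Ercc2 were neighbours whose NS ranges did not overlap. In AK Ddb1 was again first, at 21.1, and Ercc2 last, at 0.1997 CPM per kilobase, and Ercc3 at 6.86 stood before Ercc1 at 5.71, with overlapping ranges. In cSCC Ddb1 was first at 44.2 and Ercc1 next at 17.7 CPM per kilobase, with ranges that met because cSCC 19 had 62.2 of Ddb1 and 59.5 of Ercc1. They were followed by Ercc3 at 7.32, Ercc5 at 2.80, Ddb2 at 2.69, Xpc at 2.38, Xpa at 2.34 and Ercc4 at 1.21 CPM per kilobase. Ercc6 was last in cSCC, at 0.278 CPM per kilobase, below Ercc2 at 0.355, with overlapping ranges.

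The genes whose CPM ordered the 20 libraries most like each member were taken from 11464 genes tested in all comparisons. Spearman's rho is a description here, over libraries that differ in both depth and group. It was 0.92 for Ercc1 with Timm17b, 0.90 for Ddb1 with Vasp, 0.90 for Ercc5 with Megf9 and 0.86 for Ercc6 with Exph5. It was 0.83 for Ercc3 with Leo1, 0.82 for Ddb2 with Ogfod3, 0.77 for Xpa with Arglu1, 0.75 for Ercc4 with Elmo1 and 0.71 for Xpc with Cystm1. That of Ercc2 with Trmt61a, 0.86, rests on under 5 counts in 11 libraries.

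The other genes of the pathway, from the partners of the sensors to the polymerases and ligases, were 41 in all, and each was tested in every comparison. Between AK and NS, 2 of 41 were higher and 0 lower, beside 2.26% and 2.38% of all genes tested. Rfc3, a subunit of the clamp loader, was at 59.4 ± 10.4 CPM in AK (SD, n = 8) against 36.6 ± 10.3 in NS (n = 8; log2 fold change 0.68, SE 0.17, adjusted p = 0.0335). Pcna, the sliding clamp used in gap filling and replication, was at 168 ± 38.6 CPM in AK against 107 ± 29.2 in NS (0.63, SE 0.18, adjusted p = 0.0427). Both calls were lost without AK 12 and AK 16, and also without any 1 of NS 1, 2, 4 and 5 or AK 12, 13, 15 and 16.

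Between cSCC and NS, 6 of the 41 genes were higher and 1 lower, shares near or below the 11.7% and 7.65% of all genes tested. Of the 41, 3 were higher without any 1 of NS 1, NS 7, cSCC 19 and cSCC 21. In the transcription-coupled branch 1 of 6 genes was called, Uvssa, where 7.65% of all genes were called lower. Its product works beside CSB at the stalled polymerase, and its level was 18.8, 9.67, 22.8 and 7.94 CPM in cSCC against 38.1 to 74.4 in NS. All 4 cSCC libraries lay below all NS and AK libraries, a log2 fold change of -1.78 against NS (SE 0.34, adjusted p = 0.00424) and -1.82 against AK (SE 0.32, adjusted p = 0.00265). Ercc8, which encodes CSA of the same branch, was not called against NS (-0.43, SE 0.35, adjusted p = 0.410). The elongation factor gene Tcea1 was lower than in AK (-0.94, SE 0.26, adjusted p = 0.0173). The median log2 fold change of these 6 genes was -0.49 against NS and -0.50 against AK, beside 0.14 and 0.17 for all genes tested.

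Of 8 TFIIH subunit genes other than Ercc2 and Ercc3, Gtf2h4 was higher in cSCC than in NS (1.41, SE 0.42, adjusted p = 0.0314) and AK (2.56, SE 0.69, adjusted p = 0.0165). Its level was 11.4 ± 3.73 CPM in cSCC (SD, n = 4), 4.49 ± 1.66 in NS (n = 8) and 1.89 ± 1.76 in AK (n = 8). Gtf2h4 was at 0 CPM in AK 12 and AK 16. Of 3 genes of RPA, the complex that coats the undamaged strand, Rpa1 was higher than in NS (1.00, SE 0.30, adjusted p = 0.0336) and AK (1.14, SE 0.35, adjusted p = 0.0282), though cSCC 20, at 26.2 CPM, lay among the NS libraries. Of 18 genes of gap filling and ligation, those of 3 subunits of DNA polymerase delta were higher than in NS. They were Pold2 (2.13, SE 0.62, adjusted p = 0.0273), Pold4 (1.68, SE 0.44, adjusted p = 0.0175) and Pold3 (0.90, SE 0.30, adjusted p = 0.0455). Their levels in cSCC were 19.4 ± 21.3, 85.8 ± 69.8 and 28.2 ± 8.64 CPM (SD, n = 4). In NS they were 4.79 ± 3.04, 27.7 ± 10.9 and 15.5 ± 4.06 CPM (n = 8), and for each gene the groups overlapped.

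Between cSCC and AK, 5 of the 41 genes were higher and 3 lower, below the 16% and 8.34% of all genes tested. Of the 41, 1 was higher without cSCC 21 and 7 were lower without cSCC 18. Among the higher genes were Gtf2h4, Pold2 (2.27, adjusted p = 0.0226), Pold4 (1.71, adjusted p = 0.00812) and Rpa1, and the lower genes were Uvssa, Tcea1 and Pcna. Pcna was at 121, 100.2, 93.3 and 45.8 CPM in cSCC, all below the lowest AK library at 125 CPM (-0.81, SE 0.27, adjusted p = 0.0401). Without cSCC 20 and 21, 6 genes were higher and 1 lower than in NS, and 3 higher and 1 lower than in AK. The median log2 fold change of the 41 genes was 0.07 in AK against NS, 0.17 in cSCC against NS and 0.09 in cSCC against AK.

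**Figure D4:**
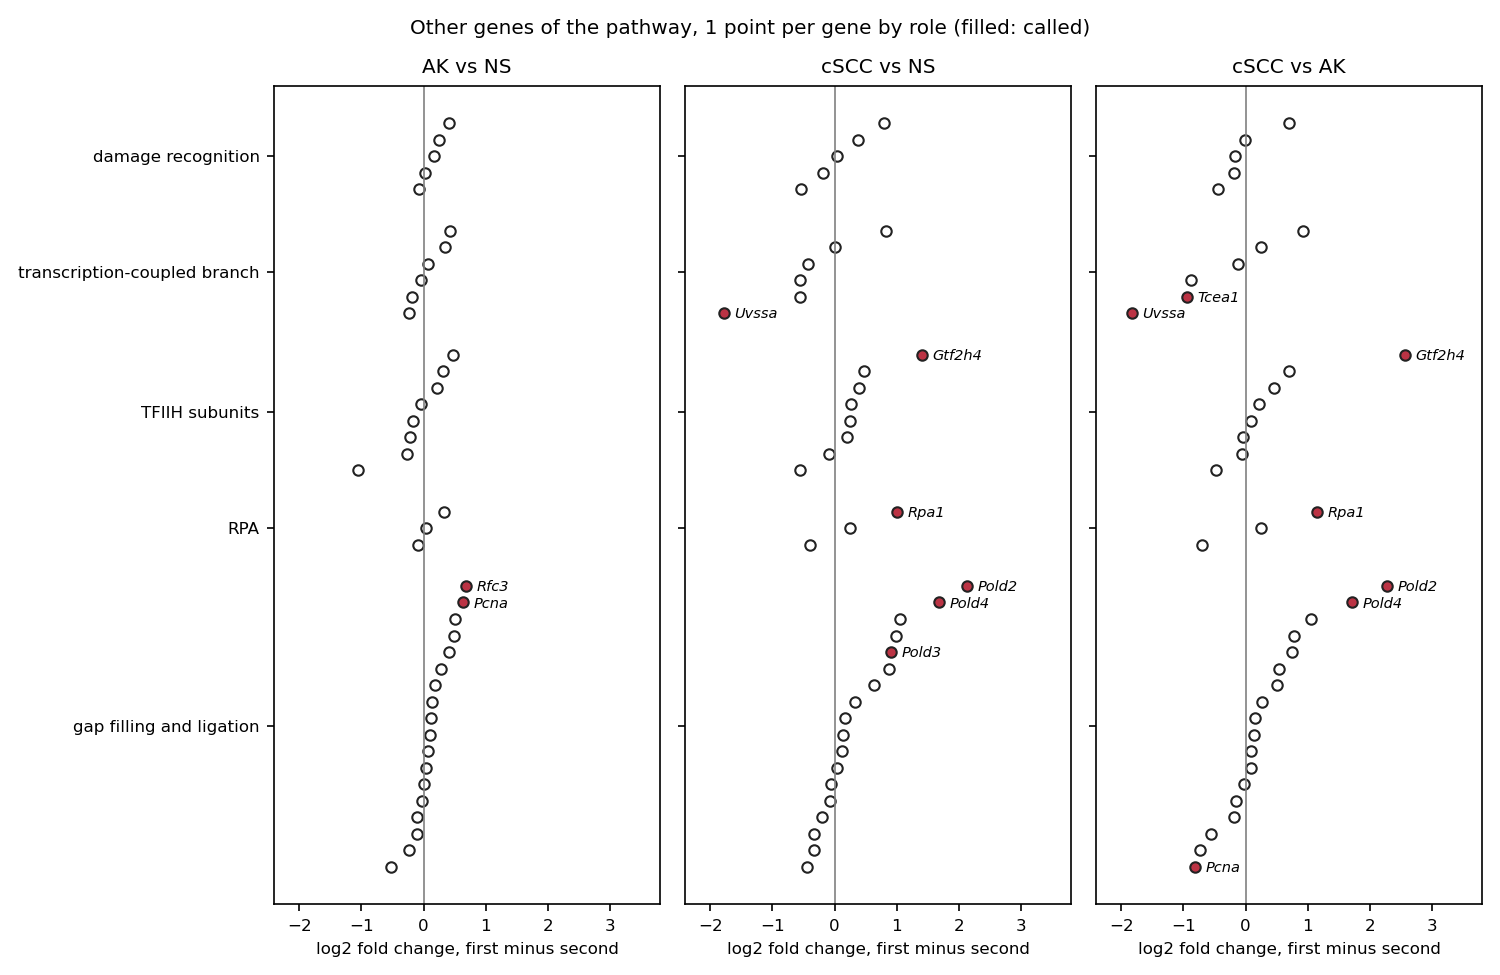
Log2 fold change (horizontal axis) of the other genes of the pathway, 1 point per gene, grouped by role on the vertical axis and ordered by value within a role, with called genes filled and named. In both comparisons with cSCC, Gtf2h4, Rpa1, Pold2 and Pold4 are filled to the right of 0 and Uvssa to the left.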

How the data were processed

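RNA of 8 NS, 8 AK and 4 cSCC tissues was sequenced as paired reads. The authors trimmed the reads, aligned them and deposited raw counts per gene symbol, without normalization. Their methods name Trimmomatic v0.36, HISAT2, GRCm38 and StringTie, whereas the submitters' processing notes list Trimmomatic 0.36, HISAT2 2.0.5, featureCounts 1.5.2 and the builds hg19 and mm9. Neither the strand setting of the counting nor how StringTie output became counts is given in the sources used here. Totals per library were 775750 to 14055206 counts, and 3 counts, the floor used, equal 3.78 to 0.225 CPM after TMM scaling, which covers counting error only. The replicates differed by more than sampling noise (smallest chi-square per degree of freedom 11.3 over 62 pairs).

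Groups came from the labels. CPM, filterByExpr, TMM and the quasi-likelihood test used edgeR 4.0.16 in R 4.3.3, fitted to the 2 groups compared and checked on simulated data. The SE is the log2 fold change over the square root of F. Ratios used a pseudocount of 1 CPM and exact permutation in scipy 1.17.1, with Python 3.11.15. Alternatives were DESeq2 1.42.0, limma 3.58.1 voom, other scaling and filters, an unadjusted p-value, no fold limit, a joint fit of the 20 samples, the study's rule (an equal-variance test per gene, unadjusted), a pseudocount of 0.1, and leaving out each library. Leaving out AK 12 and 16, cSCC 20 and 21, or haemoglobin genes was tried because those libraries stood apart. The 10 genes and all lists were chosen with earlier results of these data known. Named besides are every called gene of the pathway except 1, which is counted but not reported here, the 2 called genes of largest fold change in each direction of each other list, and the gene most alike each member.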

Additional observations from a re-analysis of the deposited data

Results flagged for a closer look

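Each of 39 sets, 1 of the 10 genes or 3 ratios in 1 group, was tested for a library far from the rest by Dixon's ratio, and 3 stood out, where chance gives about 1 in 20. Xpa was at 16.4 CPM in AK 12, while the other 7 AK libraries were at 8.39 to 11.002 CPM, and AK 12 held few counts. Xpa was at 11.8 CPM in cSCC 18, while the other 3 cSCC libraries were at 3.41 to 4.47 CPM, and cSCC 18 was the library rich in haemoglobin. Ddb1 was at 187 CPM in NS 6, while the other 7 NS libraries were at 125 to 153 CPM. The cause of these values was not tested.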

How the results depend on the processing

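Counts of the 9 genes called higher were 2 in both comparisons with cSCC. With an unadjusted p-value and with the study's rule, Ddb2 was called higher than in NS as well. With library size alone 1 was higher than in NS, and with at least 10 counts in every sample 1 was higher than in AK. That filter left Ercc1 out against AK, where AK 12 held 3 of its counts. It left Ercc6 out of both comparisons with cSCC, where cSCC 20 held 2 of its counts. The count lower than in NS was 1. It was 3 with library size alone, with or without haemoglobin genes, with an unadjusted p-value, DESeq2, the study's rule or a joint fit of the 20 samples, 2 with upper quartile factors, and 0 with limma voom or the filter of 10 counts. Leaving out 1 library gave 1 to 2, the latter without NS 2, cSCC 18 or cSCC 21. The count lower than in AK was 1. It was 2 with an unadjusted p-value or a joint fit, 3 with the study's rule, and 0 with limma voom, the filter of 10 counts or without cSCC 20 and 21. Leaving out 1 library gave 0 (without cSCC 21) to 2 (without AK 14 or cSCC 18).

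Among the 41 other genes, 2 were higher in AK than in NS, but 3 with no fold limit, 1 with upper quartile factors, library size with or without haemoglobin genes, no filter or the filter of 10 counts, 0 with a joint fit or without AK 12 and 16, and 0 to 2 when 1 library was left out; 1 was lower by the study's rule against 0. Against NS, 6 were higher in cSCC, but 10 with an unadjusted p-value, 1 with library size alone, 3 with no filter, the filter of 10 counts or library size without haemoglobin genes, 2 with limma voom, and 3 (without NS 1, NS 7, cSCC 19 or cSCC 21) to 6 without 1 library; 1 was lower, but 3 with library size alone, 4 by the study's rule, and 1 to 4 without 1 library, 4 without cSCC 18. Against AK, 5 were higher, but 9 with an unadjusted p-value, 3 with library size alone or without cSCC 20 and 21, 2 with limma voom, and 1 (without cSCC 21) to 6 without 1 library; 3 were lower, but 7 with library size alone or the study's rule, 1 with limma voom, without cSCC 20 and 21 or without AK 12 and 16, and 2 to 7 without 1 library, 7 without cSCC 18. The cause of these shifts was not tested.

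Of 680 alternative log2 fold changes of the 9 genes, 605 kept their direction and their side of the threshold, 5 lost a call, 24 gained one and 46 turned sign. Each value that turned sign was uncalled before and after. For Ercc3 in AK against NS the values were -0.0154 with upper quartile factors, -0.0282 with library size alone, -0.0426 with the filter of 10 counts, and -0.0489 to 0.27 without 1 library. For Ercc5 in AK against NS they were -0.15 to 0.0286 without 1 library. In cSCC against NS, Ercc3 was -0.32 with library size alone, -0.0609 without haemoglobin genes, -0.0207 with a joint fit, -0.14 with limma voom, -0.18 without cSCC 20 and 21, and -0.0880 to 0.30 without 1 library. Ercc4 was -0.0944 with library size alone and -0.0423 without cSCC 20 and 21, and Xpc was -0.40 to 0.0483 without 1 library. In cSCC against AK, Xpc was -0.16 with library size alone, -0.0115 without haemoglobin genes, -0.14 with no filter, -0.0690 with a joint fit, -0.0553 with limma voom, -0.0554 with the study's rule, -0.55 without cSCC 20 and 21, and -0.15 to 0.27 without 1 library. Ercc3 was -0.30 with library size alone, -0.0619 without haemoglobin genes, -0.14 with no filter, -0.0825 with a joint fit, -0.25 with limma voom, -0.15 with the study's rule, -0.22 without cSCC 20 and 21, and -0.18 to 0.31 without 1 library. Ercc4 was -0.13 with library size alone, -0.0394 with no filter, -0.14 without cSCC 20 and 21, and -0.15 to 0.32 without 1 library.

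The difference in the log2 ratio of Ercc1 to Ercc4 in cSCC against AK was 2.21 with a pseudocount of 0.1 CPM (adjusted p = 0.0545), 2.58 without cSCC 20 and 21 (adjusted p = 0.12), and 1.51 (without cSCC 19) to 2.44 without 1 library, where 2 of the 12 values kept an adjusted p under 0.05. Against NS it was 0.56 to 1.49 without 1 library, and it was called without NS 4 (1.34, permutation adjusted p = 0.0273). The difference in Xpc to Ercc6 against NS was 0.87 without cSCC 20 and 21 (adjusted p = 0.12) and 1.39 to 2.09 without 1 library. It was called without each NS library and had an adjusted p of 0.0545 without each cSCC library. Against AK it was 1.05 to 1.75 without 1 library, and it was called without AK 12 (1.70, permutation adjusted p = 0.0364). With 3 cSCC libraries a lone result cannot go below an adjusted p of 0.0545, so the values of 0.0545 without 1 cSCC library cannot tell whether a call was lost. Those of Ercc1 to Ercc4 against AK without cSCC 19, 20 and 21 were above it, at 0.145, 0.0727 and 0.109. With 2 cSCC libraries the limit is 0.2 for a lone result, and the values of 0.12 lie below it because several results were adjusted together. The difference in Ddb2 to Ddb1 against AK was -0.0297 without cSCC 20 and 21 and -0.0133 to 0.34 without 1 library. No paired analysis was possible because the labels give no mouse for a tissue. Depth limits Ercc2, Ddb2, Ercc6, Xpa and Ercc1 in single libraries, which held 0 to 3 of their counts.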

Other observations

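Lists of other DNA damage genes were counted by the same rule, beside all genes tested, of which 2.26% were called higher and 2.38% lower in AK against NS, 11.7% and 7.65% in cSCC against NS, and 16% and 8.34% in cSCC against AK. Of 5 translesion synthesis genes tested, Rev3l, the catalytic subunit of polymerase zeta, was the 1 called, at 11.7 ± 3.48 CPM in cSCC (SD, n = 4) against 32.0 ± 9.69 in NS (n = 8; log2 fold change -1.36, SE 0.35, edgeR adjusted p = 0.0170) and 39.4 ± 3.97 in AK (n = 8; -1.58, SE 0.27, adjusted p = 0.00248). Of 10 base excision repair genes tested, Polb, which fills short gaps, was lower in cSCC than in NS (-1.16, SE 0.35, adjusted p = 0.0330), and Ung, a uracil glycosylase (2.09, SE 0.52, adjusted p = 0.0114), and Parp1, which senses strand breaks (1.31, SE 0.45, adjusted p = 0.0452), were higher than in AK. Of 6 mismatch repair genes, 0 were called by edgeR in any comparison. An unadjusted edgeR p-value under 0.05 was reached by 0 of them in AK against NS, by 1 in cSCC against NS and by 1 in cSCC against AK. DESeq2 called 1 of them, in cSCC against AK, and limma voom 0.

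Of the p53 target genes, 1 of 15 tested was called in AK against NS, Sesn1 (-0.96, SE 0.27, adjusted p = 0.0475). In cSCC against NS 2 of 16 were higher, a share near the 11.7% of all genes, Ccng1 (2.23, SE 0.59, adjusted p = 0.0187) and Bax (1.02, SE 0.30, adjusted p = 0.0273), and 1 was lower, Trp53inp1 (-1.54, SE 0.42, adjusted p = 0.0227). In cSCC against AK 4 of 15 were higher, led by Ccng1 and Bax, and 2 lower, Trp53inp1 (-1.43, SE 0.36, adjusted p = 0.0122) and Perp (-1.26, SE 0.44, adjusted p = 0.0498), which is also a desmosome gene of the keratinocyte list. Ccng1 was at 525 ± 677 CPM in cSCC (SD), against 118 ± 63.7 in NS and 135 ± 23.6 in AK. Its SD in cSCC exceeded its mean, so its level was uneven across the cSCC libraries. The cSCC values of Ccng1 overlapped those of NS and those of AK. Of 14 proliferation genes, Ccna2 was higher in AK than in NS (0.86, SE 0.22, adjusted p = 0.0326), and 3 were higher in cSCC than in NS, led by Rrm2 (1.91, SE 0.37, adjusted p = 0.00481) and Plk1 (1.73, SE 0.50, adjusted p = 0.0280).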
